A study of Mus musculus with 9 samples.

Results

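The metallothionein genes Mt1 and Mt2, the zinc-sensing transcription factor gene Mtf1 and the zinc exporter gene Slc30a1 were examined in long-term haematopoietic stem cells of mice. They were selected on the measured Mt2 signal, which reads higher on the arrays with Ezh2 deletion, so every comparison of these genes with that group is a description without a test. A gene was represented by a probe set that carried its symbol alone, and, where it had several, by whichever was brightest on average over the 9 arrays. Of the 4 genes, 3 were measured this way, out of 22180 genes in all. Slc30a1 lies only on 2 probe sets that also carry another gene symbol, so it has no value here.

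Bone marrow of C57BL/6 animals was sorted for the Lin- Sca-1+ c-kit+ fraction without CD34 or CD135 on the surface. The WT group (controls), the Jak2VF group (MxCre Jak2VF/+) and the Jak2VF_Ezh2KO group (MxCre Jak2VF/+ EZH2-/-) each had 3 biological replicates, with 1 array per replicate. Jak2VF is the mutant Jak2 allele, present in 1 copy, and both mutant groups carry it. All mice, controls included, were injected with pI-pC from an age of 4 weeks (300 µg per dose, 5 doses), and cells were taken 12 weeks after the injections. pI-pC induces interferon, which switches on the Mx promoter that drives Cre, and this promoter is active in other organs besides blood. Whether the controls carried MxCre, and whether animals were pooled, is not stated in the labels.

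Metallothioneins are small, cysteine-rich proteins that bind zinc, copper and cadmium and buffer free zinc in the cell. MTF-1, the product of Mtf1, binds metal response elements in promoters when zinc rises and activates Mt1, Mt2 and Slc30a1. Mt1 and Mt2 are expressed in most tissues and also respond to glucocorticoids, cytokines and oxidative stress, whereas Mt3 is known from brain and Mt4 from stratified epithelia. In blood formation, metallothionein genes are known to be expressed in erythroid cells among others.

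The 4 metallothionein genes lie in 1 cluster of 43.1 kb on chromosome 8, in the order Mt4, Mt3, Mt2, Mt1 (RefSeq, GRCm38.p6). Mt2 spans chr8:94172618-94173567 and Mt1 spans chr8:94178883-94180327. Mtf1 lies at chr4:124802549-124849800 and Slc30a1 at chr1:191906697-191913248. The build behind the array is not stated in the labels, so these positions describe the genes and not the probe sets. The promoter windows of the cluster are shown because its genes differed in their signals. Each has 250 bases before and 50 bases after the start in the RefSeq promoter set, all on the + strand. For Mt1 and Slc30a1 that start lies inside the gene span given above. The Mt1 window therefore lies mostly within the gene, with few bases before its span. Capitals mark matches on either strand to the core of the metal response element, searched as TGCACNC and TGCGCNC.
Mt2, chr8:94172368-94172667: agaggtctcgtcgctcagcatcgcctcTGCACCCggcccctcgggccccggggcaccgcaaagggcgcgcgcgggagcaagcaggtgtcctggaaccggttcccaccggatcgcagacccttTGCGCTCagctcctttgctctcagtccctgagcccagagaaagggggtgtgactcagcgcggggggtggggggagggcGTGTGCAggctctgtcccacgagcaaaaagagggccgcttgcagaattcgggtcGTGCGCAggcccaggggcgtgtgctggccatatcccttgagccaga
Mt1, chr8:94178839-94179138: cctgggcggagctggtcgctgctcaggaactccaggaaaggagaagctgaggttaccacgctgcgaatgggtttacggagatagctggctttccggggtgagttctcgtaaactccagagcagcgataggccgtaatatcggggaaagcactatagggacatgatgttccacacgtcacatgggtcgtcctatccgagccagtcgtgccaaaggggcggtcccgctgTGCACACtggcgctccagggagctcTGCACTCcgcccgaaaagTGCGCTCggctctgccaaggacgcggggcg
Mt3, chr8:94152357-94152656: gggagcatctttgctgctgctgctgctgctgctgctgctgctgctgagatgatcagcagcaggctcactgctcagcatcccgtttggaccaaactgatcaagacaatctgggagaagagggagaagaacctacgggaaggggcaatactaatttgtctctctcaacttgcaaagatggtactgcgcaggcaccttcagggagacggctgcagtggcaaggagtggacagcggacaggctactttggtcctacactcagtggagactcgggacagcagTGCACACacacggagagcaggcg
Mt4, chr8:94136954-94137253: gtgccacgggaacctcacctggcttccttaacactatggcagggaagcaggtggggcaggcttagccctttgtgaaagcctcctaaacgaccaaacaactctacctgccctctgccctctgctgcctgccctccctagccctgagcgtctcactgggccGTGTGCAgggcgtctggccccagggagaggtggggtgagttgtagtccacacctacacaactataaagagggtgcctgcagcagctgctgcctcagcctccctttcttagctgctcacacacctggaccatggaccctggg

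The window of Mt2 held 4 matches and that of Mt1 held 3, none of them overlapping, against 1 each for Mt3 and Mt4. Of all 32851 RefSeq promoter windows of this length, 25.7% held at least 1 match, 1.97% at least 3 and 0.517% at least 4. The window of Slc30a1 held 2 matches, a number reached by 7.11% of windows, and that of Mtf1 held 0. The windows of Mt2 and Mt1 each held 24 CpG dinucleotides, a number reached by 20.0% of windows, whereas Mt3 held 8 and Mt4 held 5. GC content was 67.7% for Mt2, 60.7% for Mt1, 56.0% for Mt3 and 60.3% for Mt4, and the shares above are over windows of any composition. An antioxidant response element core, TGACNNNGC, occurred 1 time in the window of Mt2 and 0 times in those of Mt1, Mt3 and Mt4, and 12.4% of windows held it. The STAT core TTCNNNGAA (8.30% of windows) and the full palindromic glucocorticoid response element (0.00913% of windows) occurred 0 times in the windows of all 4 metallothionein genes. A match describes these letters only, and sequence outside the windows was not searched. Because the Mt1 window lies mostly within its gene span, its matches, CpG and GC content describe another stretch than those of Mt2.

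The arrays had medians between 5.51 and 5.68 (log2), and pairs of arrays correlated between 0.898 and 0.968 over all probe sets. Y-linked genes gave signal, and Xist read low, in replicates 1 and 2 of Jak2VF_Ezh2KO but not on any other array. The targeted gene, Ezh2, had signals of 8.48, 8.81 and 8.69 (WT), 8.87, 9.09 and 8.78 (Jak2VF) and 8.47, 8.08 and 8.42 (Jak2VF_Ezh2KO). All knockout arrays lay below the Jak2VF arrays, by a mean difference of -0.59 ± 0.16 (SE; limma, adjusted p = 0.411), so the gene did not pass. Whether its probes fall inside the deleted stretch is not stated in the labels. Of 16 long-term stem cell markers, 14 were measured. Their mean signal was 7.55 to 7.60 in WT, 7.27 to 7.41 in Jak2VF and 7.38 to 7.57 in Jak2VF_Ezh2KO. The Jak2VF arrays thus lay below WT, with 10 of the 14 differences negative and 0 passing. RNA of Cd34, whose protein the sort excluded, read 9.91 to 10.68 over the 9 arrays.

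Mt2, the metallothionein gene on which the choice rested, had a signal of 8.62, 9.64 and 9.61 on the WT arrays, 8.67, 10.33 and 8.82 on the Jak2VF arrays and 11.56, 11.65 and 11.27 on the Jak2VF_Ezh2KO arrays (log2, replicates 1 to 3). All 3 Jak2VF_Ezh2KO arrays lay above the 6 others, the lowest of them by 0.94 over the highest other array, which was Jak2VF replicate 2. The group means were 9.29 ± 0.58 in WT, 9.27 ± 0.92 in Jak2VF and 11.49 ± 0.20 in Jak2VF_Ezh2KO (SD, n = 3). Mt2 was thus 2.22 ± 0.42 (SE) higher in Jak2VF_Ezh2KO than in Jak2VF, a 4.66-fold difference, and 2.20 ± 0.42 higher than in WT, or 4.60-fold. These differences are the reason for the choice of the genes and carry no test. In bulk RNA of sorted cells, a change in the makeup of the cells and a change of RNA per cell cannot be told apart.

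Mt1, its neighbour, was higher on the same 3 arrays, with a smaller difference. Its signal was 9.16, 9.54 and 9.43 on the WT arrays, 8.79, 9.77 and 9.15 on the Jak2VF arrays and 10.51, 10.53 and 9.96 on the Jak2VF_Ezh2KO arrays. The groups did not overlap here either, but Jak2VF_Ezh2KO replicate 3 lay only 0.19 above Jak2VF replicate 2. The group means were 9.38 ± 0.19, 9.24 ± 0.49 and 10.33 ± 0.32 (SD, n = 3), and the differences of Jak2VF_Ezh2KO were 1.10 ± 0.25 (SE) from Jak2VF, or 2.14-fold, and 0.95 ± 0.25 from WT, or 1.93-fold. The 2 higher knockout arrays are the ones with Y-linked signal. Without them, an alternative chosen after seeing the data, the differences of Mt1 were 0.72 from Jak2VF and 0.58 from WT, while those of Mt2 were 1.997 and 1.979.

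**Figure D1:**
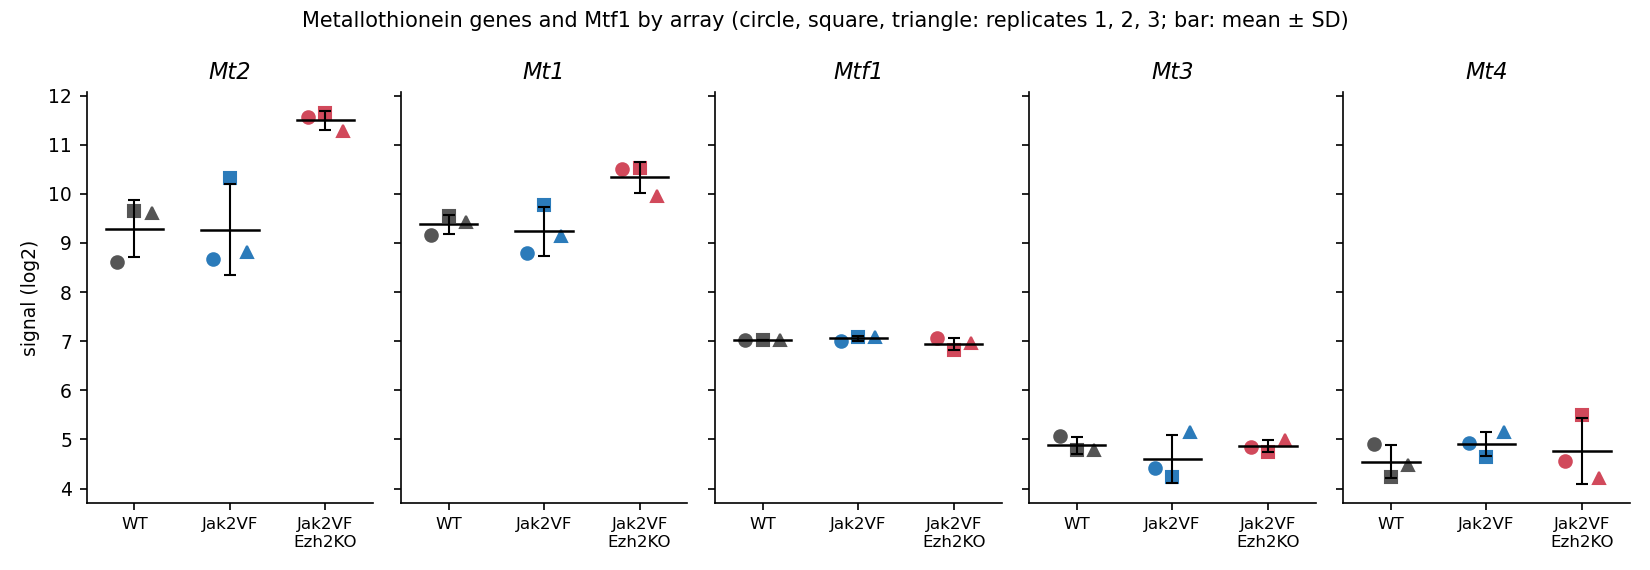
Signal (log2, vertical axis) of Mt2, Mt1, Mtf1, Mt3 and Mt4 on each of the 9 arrays by group, with replicates 1, 2 and 3 as circle, square and triangle and the mean ± SD as bars (n = 3). Mt2 and Mt1 lie above all other arrays in Jak2VF_Ezh2KO, while the groups overlap for Mtf1, Mt3 and Mt4; heights of different genes come from different probes and are not comparable.

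Mtf1 stayed within a narrow range. It read 7.02, 7.02 and 7.03 on the WT arrays, 7.001, 7.08 and 7.09 on the Jak2VF arrays and 7.06, 6.81 and 6.97 on the Jak2VF_Ezh2KO arrays. Its lowest value was in Jak2VF_Ezh2KO replicate 2, the array with the highest Mt2 signal. The differences of Jak2VF_Ezh2KO were -0.11 ± 0.12 (SE) from Jak2VF and -0.08 ± 0.12 from WT. RNA of Mtf1 does not measure the activity of the protein, which zinc regulates after translation.

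Counted over the members, 2 of the 3 measured genes lay entirely above Jak2VF in the knockout group, where 4.18% of all genes did so, and the same 2 of 3 lay entirely above WT, where 6.28% of all genes did so. None of the 3 was among the genes called at an adjusted p under 0.05 over all genes, a call made for 0.0451% of genes against Jak2VF and 0.0225% against WT. Both counts come from comparisons that the choice of members used and support nothing.

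The comparison of Jak2VF with WT was not used to choose the genes, and it was tested. Mt2 differed by -0.02 ± 0.42 (SE; limma, adjusted p = 0.999), with a 95% interval from -0.96 to 0.92. The interval for Mt1 ran from -0.71 to 0.42 around a difference of -0.14 ± 0.25 (adjusted p = 0.96). Mtf1 differed by 0.03 ± 0.12 (adjusted p = 0.984), with an interval from -0.23 to 0.29. In all 3 genes the groups overlapped, whereas 6.11% of all genes had groups without overlap, and 0 of the 3 passed, as did 0% of all genes (0 of 22180 with limma, and 0 with ordinary least squares). At an unadjusted p under 0.05, 1034 genes (4.66%) passed, none of them a member. The intervals of Mt2 and Mt1 are wide, so differences within them are not excluded. With 3 arrays per group, larger differences could also fail to pass. The direction for Mt2 was positive without either of WT replicates 2 and 3 or without either of Jak2VF replicates 1 and 3 (0.14 to 0.28), and that for Mt1 was 0.075 without Jak2VF replicate 1.

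Mt1 and Mt2 moved together outside the knockout group. Over the 6 WT and Jak2VF arrays the signals correlated with Pearson's r = 0.92 (exact permutation test, two-sided, p = 0.0208, n = 6) and Spearman's rho = 0.83 (exact permutation p = 0.0583). Without the 2 arrays farthest from the median of Mt1, Jak2VF replicates 1 and 2, r was 0.96 over 4 arrays. This was the only relation of its kind tested. Among genes picked below for their likeness over the 9 arrays, some reached a higher r over these 6 and others a lower one. Rcn3 had 0.99 with Mt2 and Zfp672 had 0.96 with Mt1, so the pair was not alone in such an r. These genes were picked over arrays that include the 6. How usual such an r is among all genes was not counted. Jak2VF replicate 2 had the highest and WT replicate 1 and Jak2VF replicate 1 the lowest values of Mt2 among these 6. The genes are close paralogs, the probe sequences were not used here, and how far the probe sets tell the RNAs apart was not tested.

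The difference between groups was not equal in Mt1 and Mt2. The choice rested on the rise of Mt2, which favours a larger difference for Mt2, so the inequality is a description without a test. The signal of Mt2 minus that of Mt1 was -0.55, 0.10 and 0.18 in WT and -0.13, 0.56 and -0.33 in Jak2VF. In Jak2VF_Ezh2KO it was 1.05, 1.12 and 1.31, above all other arrays. The absolute size of this difference depends on the probes. Its change between arrays also depends on them if the 2 probe sets respond with different steepness, which was not tested. Over the WT and Jak2VF arrays Mt2 already ran more widely, from 8.62 to 10.33, than Mt1, from 8.79 to 9.77.

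**Figure D2:**
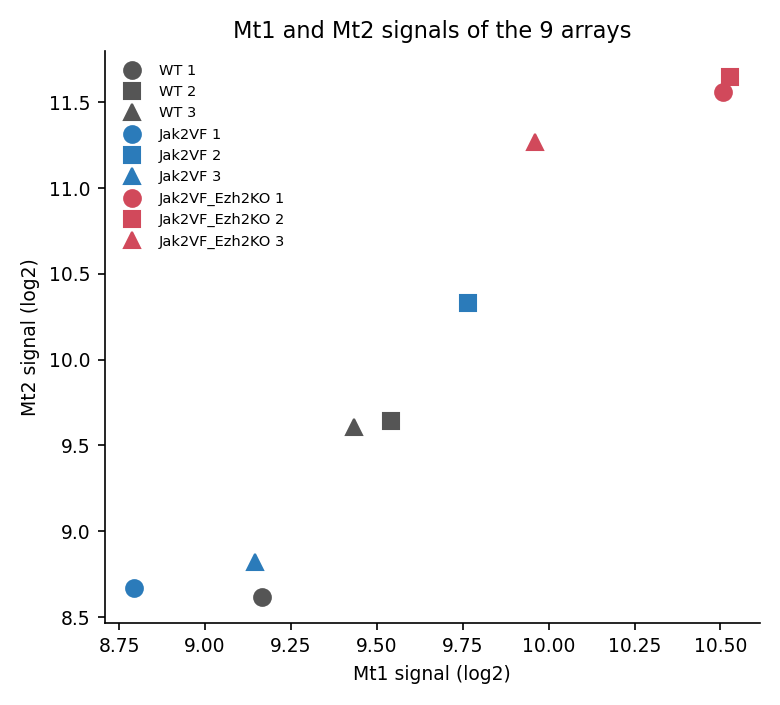
Mt2 signal (log2, vertical axis) against Mt1 signal (log2, horizontal axis) for each of the 9 arrays, coloured by group with the replicate as symbol. The 6 WT and Jak2VF arrays rise together (r = 0.92), and the 3 Jak2VF_Ezh2KO arrays lie at the upper right, with Mt2 from 11.27 to 11.65.

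Mt3 and Mt4, the other genes of the cluster, were low on every array. Mt3 read 5.07, 4.78 and 4.79 on the WT arrays, 4.43, 4.22 and 5.16 on the Jak2VF arrays and 4.84, 4.75 and 4.997 on the Jak2VF_Ezh2KO arrays. Mt4 ranged from 4.24 to 4.91 in WT, from 4.65 to 5.15 in Jak2VF and from 4.21 to 5.50 in Jak2VF_Ezh2KO. All groups overlapped in both genes. Olfactory and vomeronasal receptor genes, 1396 sensory genes serving here as a mark of background, had a 95th percentile between 5.89 and 6.74 on the arrays, and all values of Mt3 and Mt4 lay below it. This percentile of the same array is used as the receptor-gene mark for other genes too. Between Jak2VF_Ezh2KO and Jak2VF, Mt3 differed by 0.26 ± 0.22 (SE; limma, adjusted p = 0.862) and Mt4 by -0.15 ± 0.31 (adjusted p = 0.951). At signals this low a change could be missed.

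Of 13 neighbouring entries of the RefSeq gene order, among them 6 before and 6 after the cluster and 1 within it, 7 were measured. Of these, 4 lay below the receptor-gene mark on every array, among them Slc12a3 and Mir138-2, so a change in them could be missed. In Jak2VF_Ezh2KO against Jak2VF the 7 differences ran from -0.23 for Ogfod1, a ribosomal protein hydroxylase gene, to 0.19 for Slc12a3, a sodium-chloride cotransporter gene, with a median of -0.15. All genes tested had a median of -0.04. Of the 7 genes, 0 passed, 0 lay entirely above Jak2VF and 1, the microRNA gene Mir138-2, lay entirely below, as 6.94% of all genes did. Against WT the 7 differences ran from -0.10 to 0.10, with 0 passing. In Jak2VF against WT they ran from -0.14 to 0.27, the highest for Nudt21, a gene of messenger RNA 3' end processing, again with 0 passing.

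**Figure D3:**
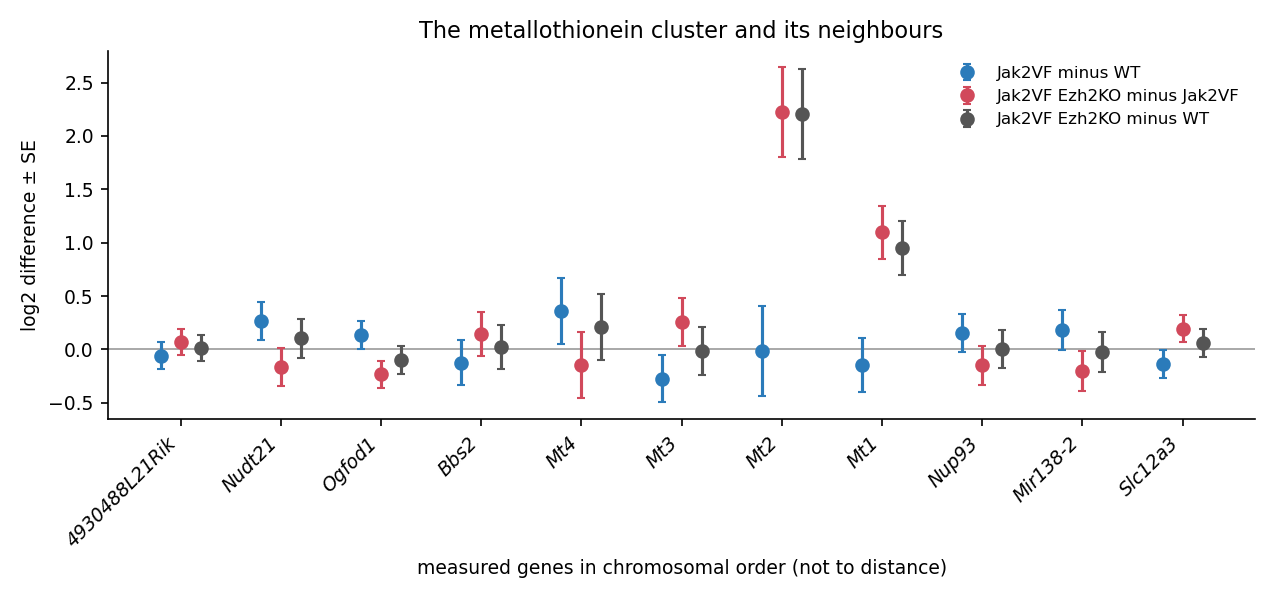
Log2 difference ± SE (vertical axis) of each measured gene in and around the metallothionein cluster, in chromosomal order but not to distance, for the 3 comparisons in colour. Mt2 and Mt1 stand at 2.22 and 1.10 in Jak2VF_Ezh2KO against Jak2VF, while the 7 measured neighbours lie between -0.23 and 0.19.

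Zinc transporters were examined as the rest of the zinc machinery. ZnT proteins move zinc out of the cytosol, and 8 of the 9 genes besides Slc30a1 were measured. In Jak2VF_Ezh2KO against Jak2VF, 0 of 8 passed, 4 differences were positive and 4 negative, and the median was -0.03, beside -0.04 for all genes. Slc30a2 and Slc30a8 lay below the receptor-gene mark on every array and Slc30a3 above it on 3, so a change in them could be missed. The most negative was Slc30a5, a transporter of the secretory pathway, at -0.33 ± 0.24 (SE; limma, adjusted p = 0.827). Slc30a7, which loads zinc into the Golgi, read 6.6, 6.73 and 6.64 on the WT arrays, 6.86, 6.79 and 7.004 on the Jak2VF arrays and 6.84, 6.99 and 7.10 on the Jak2VF_Ezh2KO arrays. Both mutant groups lay above WT, by 0.23 ± 0.13 in Jak2VF (adjusted p = 0.924) and 0.32 ± 0.13 in Jak2VF_Ezh2KO (adjusted p = 0.546), and neither difference passed.

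ZIP proteins bring zinc into the cytosol, and all 14 genes were measured. In Jak2VF_Ezh2KO against Jak2VF, 0 of 14 passed, 5 differences were positive and 9 negative, with a median of -0.03. Slc39a10, a plasma membrane importer that MTF-1 is reported to repress, read 7.17, 7.37 and 7.33 on the WT arrays, 7.42, 7.81 and 7.40 on the Jak2VF arrays and 7.37, 7.09 and 7.21 on the Jak2VF_Ezh2KO arrays. All 3 knockout arrays lay below the Jak2VF arrays, by a mean of 0.32, and within the range of WT or just below it (difference from Jak2VF -0.32 ± 0.15, SE; limma, adjusted p = 0.732). Slc39a6, its close relative, differed by 0.41 ± 0.17 in Jak2VF against WT (adjusted p = 0.924) and by -0.54 ± 0.17 in Jak2VF_Ezh2KO against Jak2VF (adjusted p = 0.539). Both comparisons share the Jak2VF arrays, so the opposite signs are not independent of each other. Against WT the 14 differences of Jak2VF_Ezh2KO ran from -0.29 for Slc39a14 to 0.23, with 0 passing. Slc39a2, Slc39a4 and Slc39a12 lay below the receptor-gene mark on every array and Slc39a14 above it on 3, so a change in them could be missed.

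**Figure D4:**
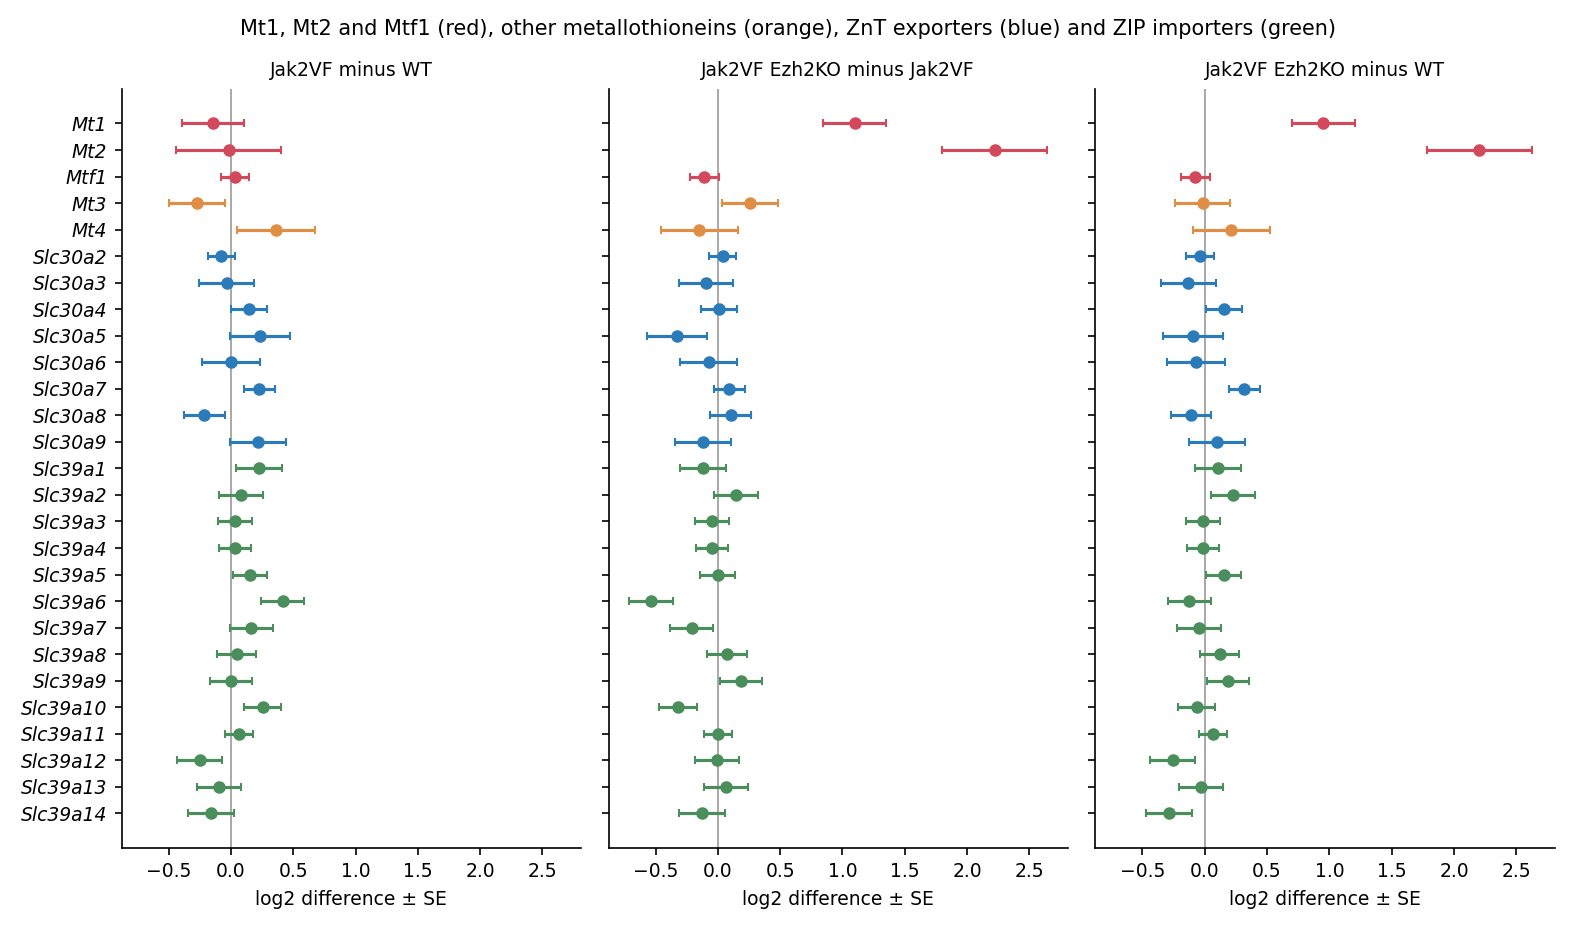
Log2 difference ± SE (horizontal axis) of Mt1, Mt2 and Mtf1, the other metallothioneins, 8 ZnT exporters and 14 ZIP importers in the 3 comparisons. The transporters lie between -0.54 and 0.41 in every panel, whereas Mt2 and Mt1 lie at 2.22 and 1.10 in the middle panel and 2.20 and 0.95 in the right one. Slc30a2, Slc30a8, Slc39a2, Slc39a4 and Slc39a12 lay below the receptor-gene mark on every array.

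Of the other genes reported as MTF-1 targets, 0 passed in any comparison. All 7 were measured, and in Jak2VF_Ezh2KO against Jak2VF 1 difference was positive and 6 negative, with a median of -0.44. Slc39a10, reported as repressed rather than activated by MTF-1, is among the negative ones, so the signs of this list do not all bear on activation. Ndrg1, a stress-responsive gene, read 9.05, 9.75 and 9.40 on the WT arrays, 10.07, 10.14 and 10.12 on the Jak2VF arrays and 9.46, 9.40 and 9.51 on the Jak2VF_Ezh2KO arrays. The Jak2VF arrays lay above all others, by 0.71 ± 0.17 over WT (SE; limma, adjusted p = 0.924) and with the knockout group at -0.66 ± 0.17 (adjusted p = 0.39). Cebpa, a myeloid transcription factor gene, differed by 0.54 ± 0.20 and -0.44 ± 0.20 in the same comparisons (adjusted p = 0.924 and 0.726), with 2 of the 9 arrays above the receptor-gene mark. Relative to WT, the 7 targets had a median of -0.14 in Jak2VF_Ezh2KO, beside -0.02 for all genes.

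Copper and iron handling genes, which share the metals that metallothioneins bind, gave 0 of 17 measured genes past the test in any comparison. Atox1, the copper chaperone that delivers copper to the secretory pathway, read 9.30, 9.59 and 9.01 on the WT arrays, 9.41, 9.79 and 9.27 on the Jak2VF arrays and 9.96, 9.73 and 10.04 on the Jak2VF_Ezh2KO arrays. The knockout arrays lay above all WT arrays (0.61 ± 0.19, SE; limma, adjusted p = 0.466) and overlapped Jak2VF (0.42 ± 0.19, adjusted p = 0.724). The list median was 0.14 in Jak2VF_Ezh2KO against WT and 0.04 against Jak2VF. Tfrc, the transferrin receptor gene, was 0.90 ± 0.31 higher in Jak2VF than in WT (adjusted p = 0.924).

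Genes of other signals that can induce metallothioneins were read beside them, and 0 passed in any comparison. Of 12 glucocorticoid-induced genes, 9 had a positive difference in Jak2VF_Ezh2KO against Jak2VF, with a median of 0.13, and 9 against WT, with a median of 0.21. Tsc22d3, a direct glucocorticoid receptor target, differed by 0.34 ± 0.15 from Jak2VF (SE; limma, adjusted p = 0.707), and the clock gene Per1 by 0.69 ± 0.22 from WT (adjusted p = 0.466). Of 10 measured heat shock genes, 7 had a positive difference from Jak2VF, with a median of 0.16. The inducible chaperone gene Hspa1b read 5.17, 4.03 and 3.65 on the WT arrays, 4.13, 4.60 and 4.76 on the Jak2VF arrays and 5.82, 6.30 and 5.39 on the Jak2VF_Ezh2KO arrays. All 3 knockout arrays were above the other 6, but of the 9 arrays 1, in the knockout group, lay above the receptor-gene mark, so the size of the difference is uncertain. The fitted values were 1.35 ± 0.37 over Jak2VF (adjusted p = 0.43) and 1.56 ± 0.37 over WT (adjusted p = 0.359). The part of heat shock or glucocorticoid signals in those of Mt1 and Mt2 was not tested.

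Oxidative stress genes under Nrf2 were mixed, with 7 of 15 measured genes positive in Jak2VF_Ezh2KO against Jak2VF and a median of -0.03. Hmox1, haem oxygenase, which heavy metals also induce, read 5.82, 5.87 and 6.10 in Jak2VF_Ezh2KO against 6.59, 6.05 and 5.71 in WT and 5.81, 5.36 and 5.73 in Jak2VF, so the knockout arrays lay just above all Jak2VF arrays and within the range of WT, with 2 of the 9 arrays above the receptor-gene mark. Gclm, of glutathione synthesis, and Taldo1, of the pentose phosphate pathway, were 0.62 ± 0.23 and 0.70 ± 0.26 higher than in WT (SE; limma, adjusted p = 0.533 and 0.526). Of 16 measured hypoxia genes, 6 were positive against Jak2VF, with a median of -0.14. Of 12 STAT3 and IL-6 response genes, 9 were positive in Jak2VF against WT, with a median of 0.28 beside 0.03 for all genes, among them Pim1 at 0.88 ± 0.25 and Socs3 at 0.29 ± 0.12 (both adjusted p = 0.924). In Jak2VF_Ezh2KO against Jak2VF, where Mt1 and Mt2 were higher, 5 of these 12 were positive, with a median of -0.12.

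Erythroid genes were set beside Mt2, because the metallothionein genes are also expressed in red cell precursors. Of 28 markers, 21 were measured, and the haemoglobin genes and Alas2 were not among them. The mean of the 21 genes was 6.82, 7.41 and 6.92 on the WT arrays, 6.73, 7.46 and 6.96 on the Jak2VF arrays and 7.62, 7.42 and 7.41 on the Jak2VF_Ezh2KO arrays. In Jak2VF_Ezh2KO against Jak2VF 19 of 21 differences were positive, with a median of 0.33 and 0 passing, and 5 genes had no overlap on the higher side, as did 4.18% of all genes. Rhd, a blood group antigen gene, was 1.26 ± 0.30 higher than in Jak2VF (SE; limma, adjusted p = 0.352). WT replicate 2 and Jak2VF replicate 2, with erythroid means of 7.41 and 7.46, had Mt2 at 9.64 and 10.33, the highest values of their groups. This is not particular to erythroid genes. The same arrays were highest of their groups in the means of heat shock (7.69 and 7.97) and Nrf2 genes (7.94 and 7.97). They were not highest in the T and NK cell mean. Their mean receptor-gene signals, 3.87 and 3.83, were the lowest of their groups. WT replicate 3 had Mt2 at 9.61 with an erythroid mean of 6.92. The part of erythroid RNA in the Mt1 and Mt2 signals was not tested.

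**Figure D5:**
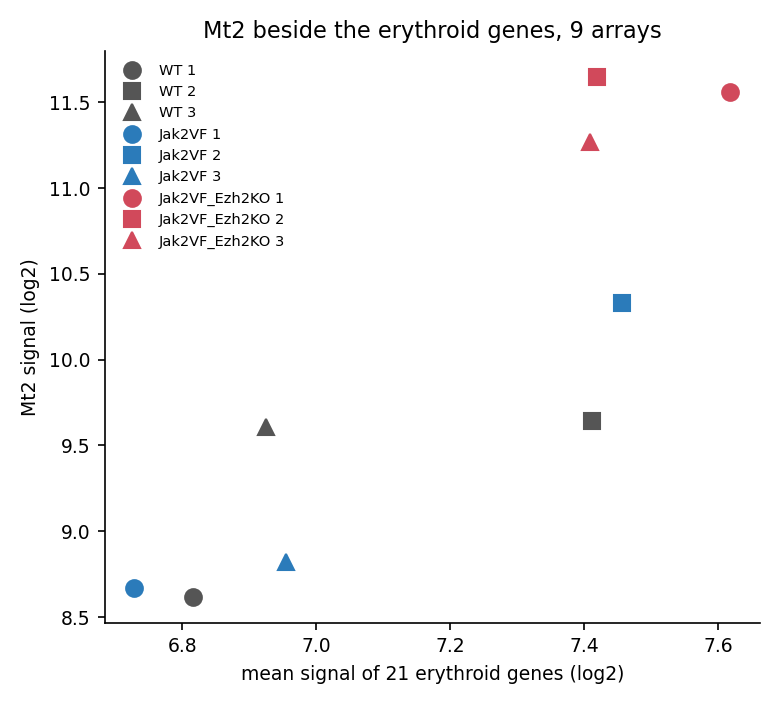
Mt2 signal (log2, vertical axis) against the mean signal of 21 erythroid marker genes (log2, horizontal axis) for each of the 9 arrays, coloured by group with the replicate as symbol. The erythroid means of the knockout arrays, 7.41 to 7.62, lie beside those of WT replicate 2 and Jak2VF replicate 2, 7.41 and 7.46. The height of the knockout arrays on the Mt2 axis is what the genes were chosen for and carries no comparison.

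Marker lists of other cell types were read beside the members. The mean of 15 measured T and NK cell genes was 6.21 to 6.59 in Jak2VF_Ezh2KO, above 5.69 to 5.90 in WT and 5.75 to 5.89 in Jak2VF. The list was divided, with 10 differences from Jak2VF positive and 5 negative, and 0 passing. Of the 15 genes, 5 lay entirely higher and 3 entirely lower, as did 4.18% and 6.94% of all genes. The mean of 13 measured megakaryocyte and platelet genes was 6.56 to 6.92 in Jak2VF_Ezh2KO, below 7.16 to 7.56 in Jak2VF. It overlapped WT, at 6.83 to 7.08. All 13 differences from Jak2VF were negative and 1 gene fell, the platelet integrin gene Itga2b (-1.45 ± 0.19, SE; limma, adjusted p = 0.0441). In Jak2VF against WT 11 of the 13 were positive, with a median of 0.42. Itga2b differed from WT by 1.17 ± 0.19 in Jak2VF (adjusted p = 0.308) and by -0.28 ± 0.19 in Jak2VF_Ezh2KO (adjusted p = 0.707). The mean of 12 mast cell and basophil genes was 5.56 to 5.70 in WT, 6.01 to 6.41 in Jak2VF and 6.15 to 6.74 in Jak2VF_Ezh2KO. Against Jak2VF 6 of the 12 differences were positive and 6 negative, with a median of 0.12. The mast cell protease gene Cma1 rose against Jak2VF (1.63 ± 0.20, SE; limma, adjusted p = 0.0441) and against WT (1.67 ± 0.20, adjusted p = 0.0459), although all WT and Jak2VF arrays lay below the receptor-gene mark, so the size of these differences is uncertain. Like Rhd, Itga2b and Cma1 are named after their values were seen, and with ordinary least squares 0 genes passed. The B cell mean was 5.10, 5.32 and 6.46 in knockout replicates 1 to 3, against 5.12 to 5.36 in the other groups, so replicate 3 alone stood above them. The neutrophil mean was 6.01, 5.62 and 6.599, against 5.48 to 5.87. The part of these cells in the Mt1 and Mt2 signals was not tested.

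The genes whose pattern was most like that of Mt2 were ranked by Pearson's r over the 9 arrays, as a description. Of the 22179 other genes, 69 (0.311%) had an r of at least 0.90. First came Rcn3, a calcium-binding protein gene of the endoplasmic reticulum, at 0.99, followed by Rbis, a ribosome biogenesis factor gene, at 0.98, Rpp21, a ribonuclease P subunit gene, at 0.97, Mt1 at 0.97, Usp50 at 0.96 and Slx4ip at 0.95. Rcn3 read 6.31, 6.55 and 6.48 on the WT arrays, 6.30, 6.65 and 6.36 on the Jak2VF arrays and 6.83, 6.96 and 6.86 on the Jak2VF_Ezh2KO arrays. Its order of arrays matched that of Mt2 closely on a much smaller scale, with a difference of 0.44 ± 0.14 between Jak2VF_Ezh2KO and Jak2VF (SE; limma, adjusted p = 0.511). Rcn3 lay above the receptor-gene mark on 6 of the 9 arrays and Slx4ip on 5, so the size of their differences is uncertain. With the group means removed, the r of Rcn3 with Mt2 was 0.95, and that of Usp50 was 0.79.

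For Mt1 the closest genes were Zfp672, a zinc finger protein gene, at 0.98, then Mt2 at 0.97, Rcn3 and Pnp at 0.95 each, Smim26 at 0.95 and Ndufc1 at 0.95. Pnp encodes a purine nucleoside phosphorylase with a near-identical neighbouring copy, so its signal is uncertain, and Ndufc1 is a respiratory complex I subunit gene. Zfp672 was 0.46 ± 0.14 higher in Jak2VF_Ezh2KO than in Jak2VF (SE; limma, adjusted p = 0.518), but 0.20 when its probe sets were averaged. Zfp672 and Pnp each lay above the receptor-gene mark on 6 of the 9 arrays. These correlations share the arrays, and the 9 points include the 3 knockout arrays, which form the upper end of the range.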

How the data were processed

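The data are 9 arrays with 1 biotin-labelled sample each, from 10 ng RNA amplified by a NuGEN kit, per the labels' protocols. For 41345 probe sets the authors deposited log2 signals, which had been processed before deposit. The submitters' processing notes name Partek 6.6. Background correction, normalization and summary are not stated in the labels, and nothing further was normalized. The platform annotation gave 23521 probe sets 1 gene symbol, 1814 several and 16010 none. The RefSeq gene and promoter tables (GRCm38.p6) gave positions, gene order and sequences, and all promoters named were found. No protein sequences were used here.

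All genes were fitted with limma 3.58.1 in R 4.3.3 (lmFit, eBayes) over all 9 arrays, with 6 residual degrees of freedom and Benjamini-Hochberg adjustment over 22180 genes, and genes passed at an adjusted p under 0.05. The number of arrays limits the precision. Log2 differences are between group means, and folds are powers of 2 of them. The fit was tested on simulated data. The members and lists were chosen with earlier results of these data known. The text names the members, up to 2 genes per list and comparison with the smallest p, the 6 genes most like Mt2 and Mt1 by Pearson's r (predicted, RIKEN, small RNA and receptor genes left out), the cluster's measured neighbours and Ezh2. Alternatives changed the variance model, scaling, filter, arrays, probe sets and covariates. Replicates are biological by their labels, but whether same-numbered ones share a day or litter is not stated, and their deviations from the group means correlated between -0.23 and 0.48, so the numbers were not used to pair samples. The labels do not say whether they came from separate animals or pools, so p-values measure only the spread between these samples.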

Additional observations from a re-analysis of the deposited data

How the results depend on the processing

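Over all alternatives and arrays left out, Mt2 stayed higher in Jak2VF_Ezh2KO, by 1.92 to 2.75 against Jak2VF and 1.87 to 2.38 against WT without 1 array in turn. Mt1 did so by 0.88 to 1.36 and 0.84 to 1.14. With a sex covariate, or without both arrays with Y-linked signal (chosen after seeing the data), Mt1 differed by 0.72 and 0.58. Both settings give the same differences, because in each the knockout side rests on replicate 3 alone. Mtf1 ran from -0.16 to -0.04 and from -0.13 to -0.01 in the same comparisons, and was -0.16 against WT with quantile normalization. Jak2VF against WT was never past the threshold for any member, and without 1 array ran from -0.41 to 0.075 for Mt1, from -0.55 to 0.28 for Mt2 and from 0.02 to 0.06 for Mtf1, with Mtf1 at -0.087 after quantile normalization.

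Mt3 in Jak2VF_Ezh2KO against WT, at -0.02, turned to 0.069 with quantile normalization, 0.016 with median centring, 0.017 with array weights and 0.12 with the sex covariate or without the arrays with Y-linked signal, and ran from -0.085 to 0.079 without 1 array. Mt4 in the same comparison turned from 0.21 to -0.34 under those last alternatives and ran from -0.16 to 0.49 without 1 array. Against Jak2VF Mt4 ran from -0.52 to 0.13. The cause was not tested.

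The 10 genes called in Jak2VF_Ezh2KO against Jak2VF became 0 with ordinary least squares, the 2 groups alone, every probe set, the replicate block or without the arrays with Y-linked signal, 19 among the brighter genes and 23 at an adjusted p under 0.1. They ran from 0 to 17 without 1 array. The 5 called against WT became 0 in those first 5 settings and with a covariate for receptor-gene signal (chosen after seeing the data), 10 with an intensity trend, 8 with quantile normalization, 3 with median centring, 14 with array weights and 13 at the looser threshold. They ran from 0 to 14 without 1 array. In Jak2VF against WT the count was 0 throughout. The replicate block cannot change group differences in this balanced design, so Mt2 at 2.22 and Mt1 at 1.10 from Jak2VF were fixed in advance. No member was called in the main fit, and with the block 0 genes were called. Slc30a1 had no probe set of its own, so no alternative gave it a value. Without the arrays with Y-linked signal, the lone knockout array was assumed to vary like the other groups.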
